A study of Homo sapiens with 36 samples.

Results

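Long intergenic noncoding RNA (LINC) genes of Caco-2 and HT-29, both human colorectal adenocarcinoma cell lines, were described across 6 groups of 3 mRNA libraries. The members were chosen by measured values, as the symbols made of LINC and a number whose mean raw count over the 18 libraries was at least 20. This left 165 genes of 2118 LINC symbols and of 60591 genes in the table. Of the other 1953 LINC genes, 836 had no count in any library and 715 a mean between 0 and 1. Just inside the limit lay LINC00239, LINC00624 and LINC01671, with means of 20.0, 20.5 and 20.6 counts, and just outside it LINC02428, LINC01547 and LINC00543, with 19.8, 19.5 and 19.2. Because the mean was taken over all groups, 16 members would have missed the limit without the Caco-2 control libraries, 15 without the HT-29 control libraries and between 0 and 7 without any one treated group.

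Cells of each line received cobalt chloride (CoCl2) at 300 µM for 24 h, the oxyquinoline derivative 4896-3212 (OD) at 5 µM for 24 h, or a control medium with 0.5 µl dimethyl sulfoxide (DMSO) per ml, which the treatment label calls untreated. OD was dissolved in DMSO at the same volume per ml. The labels name water as the solvent of CoCl2, whereas the methods place DMSO in the CoCl2 medium too, so agent and solvent cannot be told apart in the CoCl2 comparisons. Caco-2 cells had been kept for 21 days under conditions for differentiation and HT-29 cells had not, so that line and culture state cannot be told apart in any comparison between the lines. Both are established lines grown as monocultures, and OD is known here only by its catalogue code.

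The libraries were made with a stranded poly(A) RNA kit and held from 12925719 to 22332639 counts. Colon epithelium markers summed to between 4562 and 7846 CPM (counts scaled by library size) in all 18 libraries, although CDX1 had 3 counts or fewer in the Caco-2 libraries. Enterocyte markers summed to 2900 to 4480 CPM in Caco-2 and to 15.1 to 34.7 CPM in HT-29. Most of the Caco-2 sum was APOA1, with means of 2497 CPM in control and 3651 CPM with CoCl2. Single markers moved both ways there with CoCl2, SI, FABP2 and LCT down and APOA4 up. Leukocyte markers summed to 1070 to 1251 CPM in HT-29, nearly all of it lysozyme (LYZ), while PTPRC lay near 0 in each group. Both agents inhibit HIF prolyl hydroxylases and thereby stabilise hypoxia-inducible factor (HIF). Of 15 HIF target genes, CoCl2 raised 14 of 14 tested (Caco-2) and 14 of 15 (HT-29), and OD 12 of 14 and 7 of 15. In the same order 9.13%, 17.4%, 4.43% and 9.5% of all genes rose, by the limits of a call given below. With library totals alone, or with DESeq2 size factors, OD raised 5 of 15 in HT-29.

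Long noncoding RNAs are transcripts without a long conserved reading frame, many of them spliced, capped and polyadenylated like mRNA. They are usually less abundant and more restricted to certain cell types than mRNA, and some act on neighbouring genes while others act as scaffolds or bind miRNAs. A LINC symbol is a name given by nomenclature to a gene of no assigned function, so that the group is defined by naming and not by shared biology. HIF activates genes through an HIF response element whose core is read on either strand. In bulk RNA, fewer cells that express a gene and less RNA of it per cell cannot be told apart.

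In GENCODE v44 (GRCh38), 147 members were found by symbol and 13 by a RefSeq synonym. LINC00680, LINC00888 and LINC01145 each match several genes and their counts are uncertain, and LINC01137 and LINC02163 were unmatched. Of the 160 located members, 155 are annotated as lncRNA, 3 as pseudogenes (LINC00674, LINC01881, LINC02210) and 2 as protein-coding (LINC00514, now GREP1, and LINC00672, now LASP1NB). The median exonic length was 4057.5 bases and the median distance to the nearest protein-coding gene 15350 bases. Another gene overlaps 90 of them on the other strand and 49 on the same strand, 101 in either way. The sources used here do not give the counting's use of strand, so for these members reads of the overlapping genes cannot be told apart.

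Promoters are shown for members that changed in the same direction in all 4 comparisons of a treatment with control and that RefSeq's promoter table holds, since their response was shared by both lines and both agents. They are from RefSeq on GRCh38.p14 and run from 250 bases before to 50 bases after the start. Capitals mark the HIF response element core, ACGTG or GCGTG on either strand, and the sequences read 5′ to 3′ on the gene's strand. The window of LINC01564 is chr6:53628130-53628429 and that of LINC00638 (VESTAR in RefSeq) chr14:104820951-104821250, both on the plus strand. The windows of LINC01124, chr2:170714518-170714817, and LINC01348, chr1:235069769-235070068, are on the minus strand.
LINC01564: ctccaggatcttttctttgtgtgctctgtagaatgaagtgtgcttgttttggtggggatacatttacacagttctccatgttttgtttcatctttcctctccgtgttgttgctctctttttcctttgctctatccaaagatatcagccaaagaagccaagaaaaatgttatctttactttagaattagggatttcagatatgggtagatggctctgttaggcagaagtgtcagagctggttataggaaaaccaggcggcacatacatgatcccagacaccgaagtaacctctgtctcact
LINC00638: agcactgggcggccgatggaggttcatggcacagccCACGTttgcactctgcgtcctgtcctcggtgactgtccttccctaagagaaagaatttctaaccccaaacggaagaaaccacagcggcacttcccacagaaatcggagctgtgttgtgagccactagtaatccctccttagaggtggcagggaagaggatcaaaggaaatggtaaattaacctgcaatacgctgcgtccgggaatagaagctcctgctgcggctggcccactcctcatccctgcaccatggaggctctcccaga
LINC01124: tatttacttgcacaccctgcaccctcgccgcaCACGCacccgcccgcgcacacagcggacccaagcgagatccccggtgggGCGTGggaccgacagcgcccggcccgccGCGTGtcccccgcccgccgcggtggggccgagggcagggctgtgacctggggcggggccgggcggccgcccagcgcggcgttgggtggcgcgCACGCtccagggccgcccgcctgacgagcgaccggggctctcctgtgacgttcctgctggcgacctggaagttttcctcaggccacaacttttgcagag
LINC01348: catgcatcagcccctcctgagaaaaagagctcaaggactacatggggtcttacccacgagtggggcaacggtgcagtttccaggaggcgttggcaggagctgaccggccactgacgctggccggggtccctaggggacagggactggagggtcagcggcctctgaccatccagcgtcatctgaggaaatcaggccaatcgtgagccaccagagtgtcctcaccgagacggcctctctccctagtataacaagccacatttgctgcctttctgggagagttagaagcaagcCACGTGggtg

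The LINC01564 window holds 0 cores, that of LINC00638 holds 1, that of LINC01124 holds 4 and that of LINC01348 holds 2, which are the opposite strands of a single palindromic CACGTG. The RefSeq starts of LINC01564 and LINC01348 lie 11909 and 4402 bases downstream of the 5′ ends of the GENCODE genes, so these windows are not at the outermost annotated start. LINC01963 and LINC02532 were also lower in all 4 comparisons and have no entry. Of 118 members with a promoter in the table, 60 (50.8%) held the HIF response element core, beside 48.4% of all 27305 promoters. Among members called lower it was found in 16 of 30 promoters (CoCl2) and 9 of 16 (OD) for Caco-2 and in 36 of 60 and 13 of 22 for HT-29. Among members called higher it was found in 4 of 8, 5 of 6, 2 of 8 and 4 of 7, and among those not called in 33 of 65, 39 of 81, 15 of 35 and 36 of 74, in the same order. The order of higher and lower members thus was not the same in the 4 comparisons. The antioxidant response element core TGACNNNGC, searched on both strands, was found in 31 member promoters (26.3%) and in 13.6% of all promoters. In the same order of comparisons, members called higher held it in 1 of 8, 2 of 6, 2 of 8 and 2 of 7 promoters. Those called lower held it in 8 of 30, 3 of 16, 14 of 60 and 5 of 22, and those not called in 15 of 65, 19 of 81, 12 of 35 and 21 of 74. The metal response element core, TGCACNC or TGCGCNC on either strand, was found in 31 member promoters (26.3%) and in 29.4% of all promoters. These matches describe the letters of the windows only, and the HIF and metal response element cores can overlap, as in TGCACGC. The median GC content was 58.3% in both the member promoters and all promoters.

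The members' summed share of the counts was lower in all treated libraries than in any control library of the same line. In Caco-2 the 3 control libraries held 0.142%, 0.142% and 0.133% of their counts in the 165 genes, the CoCl2 libraries 0.0861%, 0.0910% and 0.0862%, and the OD libraries 0.0972%, 0.1000% and 0.0997%. In HT-29 the controls held 0.139%, 0.138% and 0.134%, the CoCl2 libraries 0.0557%, 0.0560% and 0.0549%, and the OD libraries 0.107%, 0.1105% and 0.108%. The groups did not overlap within a line. In Caco-2 cells the mean control share was 1.58 times that with CoCl2 and 1.40 times that with OD. For HT-29 cells these ratios were 2.46 and 1.26. The CoCl2 share was also below the OD share, by a factor of 1.13 in Caco-2 and 1.96 in HT-29. These shares are a description with no test, since the counts they sum are those by which the members were chosen, and some members reached the limit only through the control libraries. The 5 most counted members carried from 19.4% of the member counts (Caco-2, OD) to 31.8% (HT-29, CoCl2).

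**Figure D1:**
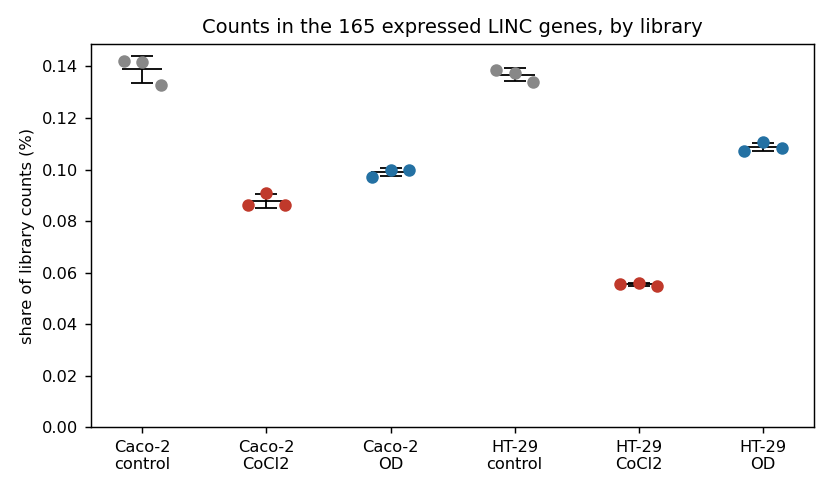
Share of each library's counts (%, y axis) that fell in the 165 expressed LINC genes, by group (x axis); points are libraries, and the black marks are the mean and SD of 3. The control libraries lie between 0.133% and 0.142% in both lines, and the HT-29 CoCl2 libraries lowest, between 0.0549% and 0.0560%.

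Each gene was tested by edgeR's quasi-likelihood test and called when the Benjamini-Hochberg adjusted p (FDR) over all genes of the fit was under 0.05 and the absolute log2 fold change over 1. With CoCl2 in Caco-2, 14 of 142 members tested rose and 45 fell, against 9.13% of all genes rising and 14.2% falling. The members' median log2 fold change was -0.53, and that of all genes -0.03. With OD in Caco-2, 9 of 142 rose and 25 fell, against 4.43% and 7.27% of all genes, with a median of -0.50. Scaled by library totals alone, 6 members rose and 35 fell in that comparison, against 3.12% and 10.2% of all genes. With CoCl2 in HT-29, 15 of 135 rose and 75 fell, against 17.4% and 23.9% of all genes, with a median of -1.09. Scaled by library totals alone, 6 rose and 94 fell, against 8.20% and 39.5% of all genes. With OD in HT-29, 10 of 135 rose and 28 fell, against 9.5% and 7.57% of all genes, with a median of -0.34. The members' share of falling genes thus lay above that of all genes in each of the 4 comparisons (31.7%, 17.6%, 55.6% and 20.7%). Their share of rising genes was near that of all genes or below it in all but Caco-2 OD (9.86%, 6.34%, 11.1% and 7.41%). Members were chosen by a mean count that includes the control libraries, and the set of all genes was not. A gene could thus enter through a high control level and then be called lower. The part of this rule in the members' share of falling genes was not tested, so these shares are a description only. The same holds for the later comparisons of members with all genes.

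Other lncRNAs with a mean count of at least 20 also had medians below 0, -0.43, -0.39, -0.81 and -0.18 in the same 4 comparisons, and 170 of 386 of them fell with CoCl2 in HT-29. Protein-coding genes with such a mean had medians of 0.02, 0.04, 0.05 and 0.01, and 2134 of 11563 fell with CoCl2 in HT-29. Members are less abundant per length than other genes, as the RPKM values given with the levels show, and the part of abundance in these counts was not tested. In no comparison did a called member have a treated library within the range of its controls. The limits of a call favour such separation, and its share over all called genes was not counted. It is therefore no trait shown to be particular to the members.

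**Figure D2:**
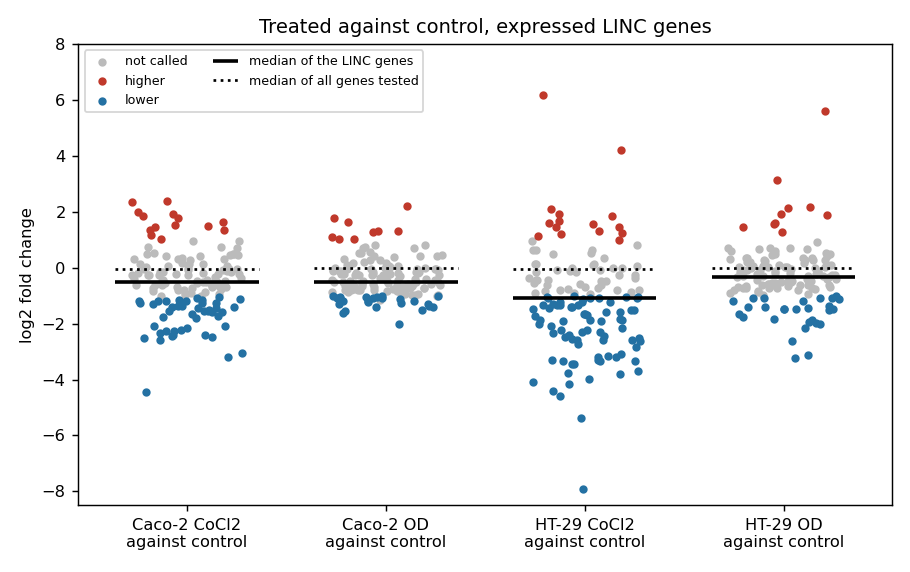
Log2 fold change against control (y axis) of each LINC gene tested, for both agents in both lines (x axis); red points were called higher, blue points lower and grey points neither, with the solid line at the LINC median and the dotted line at the median of all genes. The solid line lies below the dotted one in each column, at -1.09 with CoCl2 in HT-29, and the isolated high points in HT-29, at 6.18 and 5.59, are LINC01564.

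Of the 112 members tested in both lines, LINC01564 was the only one raised in all 4 comparisons (0.818% of all genes tested in both). The gene spans chr6:53616471-53707024 on the plus strand and overlaps GCLC and KLHL31 on the other strand. Its level in the 3 Caco-2 control libraries was 0.857, 0.986 and 0.613 CPM, in the CoCl2 libraries 5.24, 3.92 and 3.60 CPM, and in the OD libraries 2.12, 1.48 and 1.53 CPM. In HT-29 the controls held 0.267, 0.399 and 0.633 CPM, the CoCl2 libraries 31.7, 30.7 and 33.4 CPM, and the OD libraries 24.5, 20.6 and 22.6 CPM. The groups were fully separated in both lines, and the treated HT-29 libraries stood far above all other libraries. In Caco-2 cells the log2 fold change was 2.35 ± 0.29 (SE, FDR 1.43e-07) with CoCl2 and 1.04 ± 0.32 (FDR 0.00967) with OD. The HT-29 values were 6.18 ± 0.15 (FDR 6.58e-23) with CoCl2 and 5.59 ± 0.16 (FDR 1.41e-20) with OD. For changes this large from a control of few counts, an SE derived from the F statistic can be too small. The Caco-2 OD value was 0.89, below the limit of 1, with library totals alone, and 0.89 and 0.95 without replicate 1 or 3. The difference between the lines, tested as an interaction, was 3.74 ± 0.40 for CoCl2 and 4.54 ± 0.42 for OD.

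The start of GCLC lies 499 bases from that of LINC01564. GCLC encodes the catalytic subunit of the rate-limiting enzyme of glutathione synthesis. It also rose with CoCl2 in both lines, and with OD was called in HT-29 only. Its level was 67.8 ± 2.66 CPM (SD, n = 3) in HT-29 control, 699 ± 17.9 CPM with CoCl2 and 341 ± 25.2 CPM with OD. In Caco-2 it was 43.5 ± 1.55, 173 ± 7.74 and 65.8 ± 4.95 CPM. GCLC rose on the log2 scale by 3.47 (CoCl2) and 2.35 (OD) in HT-29 and by 1.99 (CoCl2) in Caco-2, and had 0.59 (OD, not called) there. Because the genes overlap, the part of GCLC reads in the LINC01564 counts was not tested.

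5 members fell in all 4 comparisons, LINC00638, LINC01124, LINC01348, LINC01963 and LINC02532, where 1.09% of all genes did. LINC00638 (chr14:104821201-104823718, plus strand) held 3.65, 3.88 and 3.61 CPM in Caco-2 control, 0.328, 0.784 and 0.265 CPM with CoCl2 and 1.12, 1.89 and 2.50 CPM with OD. In HT-29 it held 1.80, 1.88 and 1.74 CPM in control, no count in any of the 3 CoCl2 libraries, and 0.859, 0.420 and 0.605 CPM with OD. Its level was thus lowest with CoCl2 in both lines, without overlap. The log2 fold change in Caco-2 was -3.03 ± 0.37 with CoCl2 and -1.02 ± 0.28 with OD (-0.79 without replicate 1), and in HT-29 with OD -1.48 ± 0.28. With CoCl2 in HT-29 it was at least 24.8-fold lower, taking 3 counts over the group as the floor.

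LINC01124 (chr2:170712451-170714567, minus strand) held 2.17, 2.37 and 3.33 CPM in Caco-2 control, 0.164, 0.0712 and 0.106 CPM with CoCl2 and 1.59, 1.18 and 0.624 CPM with OD. HT-29 libraries held 3.54, 3.14 and 2.41 CPM in control, 0.145, 0.134 and 0.160 CPM with CoCl2 and 1.56, 1.56 and 1.26 CPM with OD. Both lines gave the same order, with the CoCl2 libraries near 0 and the OD libraries between. The CoCl2 groups held 5 counts against 123 in Caco-2, a ratio of 23.4-fold with an exact 95% counting interval from 9.76 to 73.4, and 6 against 169 in HT-29, 20.1-fold (9.06 to 55.6). With OD the log2 fold change was -1.20 ± 0.34 in Caco-2 (-0.71 without replicate 3) and -1.001 ± 0.21 in HT-29 (-0.94 without replicate 1). SP5, a transcription factor gene of the Wnt pathway that starts 770 bases away in the opposite direction, fell with CoCl2 in HT-29 (-2.97) and was not called with OD there (-0.82) or in Caco-2 (-0.14 with CoCl2, 0.11 with OD).

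LINC01348 (chr1:235064927-235074220, minus strand) held 3.03, 3.35 and 2.79 CPM in Caco-2 control, 1.31, 1.71 and 1.33 CPM with CoCl2 and 0.661, 1.48 and 0.971 CPM with OD. HT-29 cells had 1.20, 1.54 and 1.82 CPM in control, 0.145, 0.0670 and 0.0798 CPM with CoCl2 and 0.644, 0.420 and 0.934 CPM with OD. In Caco-2 the 2 agents gave overlapping levels, while in HT-29 the CoCl2 libraries lay lowest. The fall in Caco-2 was -1.08 ± 0.28 with CoCl2 and -1.54 ± 0.30 with OD (log2), and that of HT-29 with OD was -1.19 ± 0.29 (-0.97 without replicate 2). The ratio with CoCl2 in HT-29 rested on 4 counts against 91, with an interval from 6.13 to 60.9.

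LINC01963 (chr2:216217045-216220192, plus strand) was the most abundant of the 5. It held 21.4, 20.5 and 19.9 CPM in Caco-2 control, 3.93, 4.63 and 2.60 CPM with CoCl2 and 8.13, 8.80 and 11.5 CPM with OD. In HT-29 it held 14.6, 13.5 and 14.9 CPM in control, 2.32, 1.61 and 1.68 CPM with CoCl2 and 2.52, 2.101 and 2.20 CPM with OD. OD lay midway in Caco-2 and near CoCl2 in HT-29. On the log2 scale CoCl2 gave -2.50 ± 0.17 (Caco-2) and -2.83 ± 0.15 (HT-29) and OD -1.13 ± 0.15 and -2.64 ± 0.13, and the OD response differed between the lines (-1.53 ± 0.22, FDR 4.96e-07). LINC02532 (chr6:106705328-106788148, minus strand) fell on the log2 scale by 1.44 with CoCl2 and 1.26 with OD (Caco-2) and by 1.64 with OD (HT-29), and 19.2-fold (interval 8.62 to 53.0, 6 counts against 161) with CoCl2 in HT-29.

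**Figure D3:**
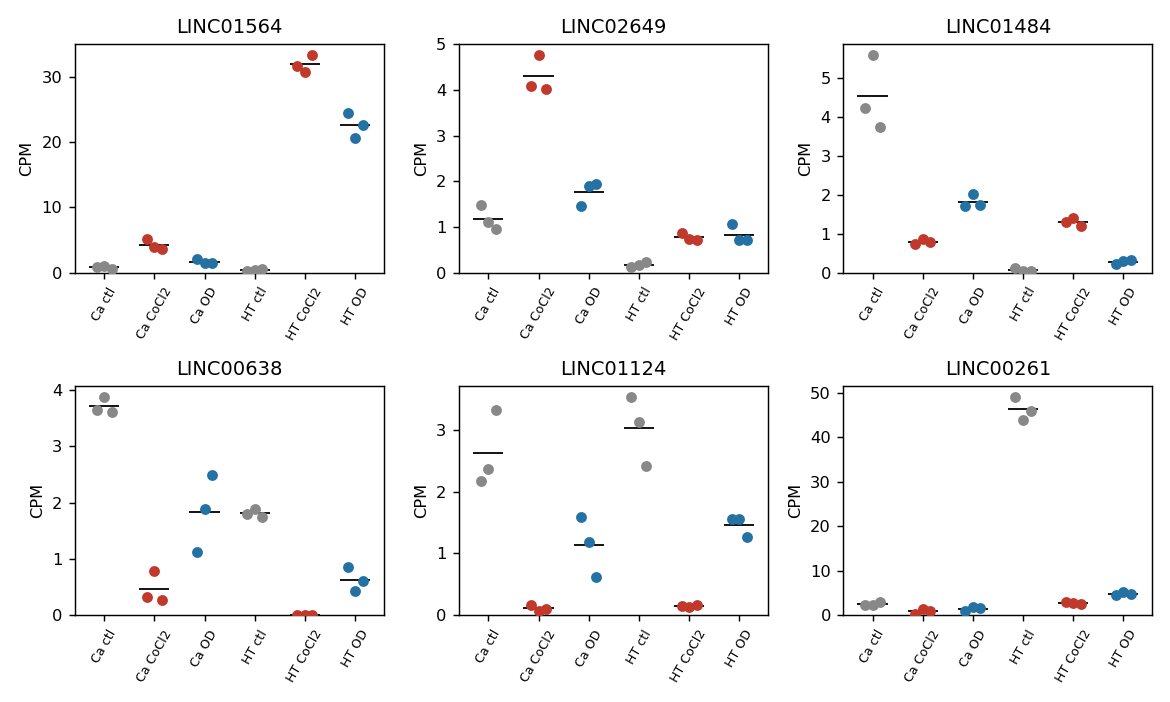
Level in CPM (linear y axes, scaled per gene) of 6 LINC genes in each library; Ca is Caco-2, HT is HT-29, ctl is control, points are libraries and bars the mean of 3. LINC01564 reaches 31.9 CPM on average with CoCl2 in HT-29, LINC01484 falls in Caco-2 and rises in HT-29, and LINC00638 has no count with CoCl2 in HT-29.

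Across the 4 comparisons with control, 122 of 165 members were called at least once, 96 of them always lower, 23 always higher and 3 in both directions. Of all 17903 genes tested in either line, 51.7% were called at least once, 28.3% always lower, 21.7% always higher and 1.74% in both directions. The 3 members were LINC00668, LINC01002 and LINC01484. The other 43 were never called. In Caco-2, 18 members fell with both agents, against 5.05% of all genes, and 7 rose with both, against 2.94% (LINC00511, LINC00598, LINC01293, LINC01322, LINC01559, LINC01564 and LINC01881). In HT-29, 26 fell with both, against 6.17%, and 6 rose with both, against 5.66% (LINC01176, LINC01484, LINC01564, LINC01697, LINC02649 and LINC02701). Within a line no member was called in opposite directions by the agents, which share their control libraries; of all genes 0.106% (Caco-2) and 0.531% (HT-29) were.

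With CoCl2, 26 of 112 members fell in both lines, against 8.02% of the 13943 genes tested in both, and 7 rose in both, against 5.61% (LINC00641, LINC00674, LINC01011, LINC01559, LINC01564, LINC02331 and LINC02649). LINC00641 (chr14:21200079-21206900, minus strand) held 17.1, 16.4 and 13.2 CPM in Caco-2 control and 43.2, 52.9 and 50.2 CPM with CoCl2, and in HT-29 10.7, 9.41 and 11.2 CPM and 35.2, 39.6 and 35.6 CPM. Its CoCl2 libraries lay above all others in both lines. CoCl2 gave log2 fold changes of 1.64 ± 0.12 (Caco-2) and 1.92 ± 0.08 (HT-29), and OD gave -0.73 and 0.46, neither called. LINC01011, whose gene lies over the start of NQO2 on the same strand, had log2 fold changes of 1.92 ± 0.17 and 1.68 ± 0.18 with CoCl2, beside 0.38 (not called) and 2.13 for NQO2. Reads of LINC01011 and NQO2 cannot be told apart where the exons overlap.

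LINC02649 (chr10:6271169-6353827, plus strand) held 1.49, 1.12 and 0.953 CPM in Caco-2 control, 4.09, 4.77 and 4.03 CPM with CoCl2 and 1.45, 1.89 and 1.94 CPM with OD. The HT-29 values were 0.134, 0.171 and 0.237 CPM in control, 0.869, 0.737 and 0.718 CPM with CoCl2 and 1.07, 0.720 and 0.715 CPM with OD. CoCl2 separated from control in both lines, while OD overlapped control in Caco-2. CoCl2 gave log2 fold changes of 1.83 ± 0.26 (Caco-2) and 2.095 ± 0.44 (HT-29), and OD 0.55 ± 0.29 (not called) and 2.12 ± 0.41. PFKFB3, 16525 bases away and coding for an enzyme that promotes glycolysis, rose with CoCl2 by 2.79 (Caco-2) and 5.19 (HT-29) and with OD by 1.62 (Caco-2), and had 0.45 with OD in HT-29 (not called).

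Members raised by OD in both lines were LINC00598, LINC01176 and LINC01564 (3 of 112, against 1.17% of all genes). LINC00598 held 0.742, 0.526 and 1.16 CPM in Caco-2 control and 2.51, 2.89 and 2.84 CPM with OD, and in HT-29 0.868, 0.285 and 0.673 CPM and 2.90, 1.56 and 2.14 CPM. LINC01176 held 1.09, 1.18 and 1.09 CPM in Caco-2 control and 5.95, 4.43 and 5.27 CPM with OD, and in HT-29 1.94, 1.20 and 1.62 CPM and 3.38, 3.72 and 4.12 CPM. For both genes each OD library exceeded each control library of its line. OD gave log2 fold changes of 1.76 ± 0.31 and 1.88 ± 0.31 (Caco-2 before HT-29) for LINC00598 and 2.21 ± 0.26 and 1.26 ± 0.21 for LINC01176. OD lowered 7 of 112 members in both lines, against 1.51% of all genes, LINC00638, LINC01124, LINC01348, LINC01376, LINC01806, LINC01963 and LINC02532.

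The agents were compared directly within each line, at doses that differ. CoCl2 gave higher levels than OD for 9 of 142 members in Caco-2 and lower levels for 22, against 5.21% and 6.44% of all genes. In HT-29 it gave higher levels for 9 of 135 and lower levels for 60, against 10.8% and 19.2%, and with library totals alone 5 and 83, against 4.95% and 33.4%. The median log2 difference was -0.11 in Caco-2 and -0.94 in HT-29. LINC00342 (chr2:95807052-95835003, minus strand) held 18.6, 19.8 and 23.1 CPM in Caco-2 control, 1.39, 2.78 and 2.33 CPM with CoCl2 and 13.6, 17.6 and 20.9 CPM with OD. HT-29 held 40.0, 39.4 and 33.9 CPM in control, 3.69, 3.82 and 3.99 CPM with CoCl2 and 40.4, 38.3 and 35.8 CPM with OD. It was lowered by CoCl2 in both lines, with log2 fold changes of -3.21 ± 0.19 and -3.18 ± 0.11, while OD overlapped control. The direct log2 difference of CoCl2 from OD was -2.97 ± 0.20 and -3.22 ± 0.11.

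LINC00205 (chr21:45288035-45297806, plus strand), the most counted member in Caco-2 control and named after its values were seen, held 62.3, 64.1 and 53.7 CPM there, 12.86, 13.04 and 11.8 CPM with CoCl2 and 38.8, 37.0 and 39.0 CPM with OD. The HT-29 libraries held 33.7, 34.2 and 28.8 CPM in control, 9.70, 8.91 and 8.70 CPM with CoCl2 and 34.8, 37.6 and 33.6 CPM with OD. The CoCl2 libraries were the lowest in both lines, with log2 fold changes of -2.26 ± 0.10 and -1.71 ± 0.09, and OD gave -0.65 and 0.15, neither called. POFUT2, a protein O-fucosyltransferase gene that starts 137 bases away in the opposite direction, rose with CoCl2 by 1.36 and 1.65 in the 2 lines. With CoCl2, 38 (Caco-2) and 55 (HT-29) falling members had a protein-coding neighbour that was tested too. The neighbour rose for 5 and 6 of them, where 9.13% and 17.4% of all genes rose.

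The response to CoCl2 differed between the lines for 57 of 165 members. The difference in log2 fold change, HT-29 minus Caco-2, was called lower for 50 and higher for 7, against 13.8% and 7.79% of all genes. For OD it was called lower for 20 and higher for 22, against 6.24% and 8.96%. Of the 112 members tested in both lines, 42 had a lower and 6 a higher CoCl2 response in HT-29. Of these 48, 9 were called lower in both lines and 27 in HT-29 alone. The fold changes had opposite signs in the lines for 13, of which 6 are among those 27. Pearson's r between the lines over these 112 members was 0.62 for CoCl2 and 0.27 for OD (Spearman's rho 0.60 and 0.15), and over all 13943 genes tested in both 0.66 and 0.30. These correlations are across genes, which are not independent replicates, and each is a description only. For members with a group at or near 0 counts the fitted difference is no measure of its size.

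LINC01484 (chr5:173707614-173746279, minus strand) was the only member called in opposite directions in the lines, with both agents, beside 0.689% (CoCl2) and 0.481% (OD) of all genes tested in both. In Caco-2 it held 4.23, 5.59 and 3.74 CPM in control, 0.737, 0.855 and 0.795 CPM with CoCl2 and 1.72, 2.01 and 1.73 CPM with OD. In HT-29 it held 0.134, 0.0570 and 0.0396 CPM in control, 1.30, 1.41 and 1.20 CPM with CoCl2 and 0.215, 0.300 and 0.330 CPM with OD. The treated libraries lay below control in Caco-2 and above control in HT-29, without overlap. The Caco-2 log2 fold change was -2.49 ± 0.28 under CoCl2 and -1.31 ± 0.24 under OD. In HT-29 the CoCl2 group held 54 counts against 4 in control, a ratio of 18.9-fold (interval 6.97 to 71.8), and the OD group 15 against 4, 4.05-fold (1.29 to 16.8). The OD call in HT-29 was lost with DESeq2 and without replicate 2 or 3.

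LINC00261 (chr20:22547663-22578642, minus strand), a lncRNA of endoderm next to the endodermal transcription factor gene FOXA2, held 49.1, 44.04 and 46.0 CPM in HT-29 control, 2.97, 2.61 and 2.55 CPM with CoCl2 and 4.56, 5.16 and 4.78 CPM with OD. In Caco-2 it held 2.28, 2.37 and 2.99 CPM in control, 0.328, 1.35 and 0.848 CPM with CoCl2 and 0.859, 1.77 and 1.59 CPM with OD. CoCl2 brought HT-29 down to near the Caco-2 control level, while each HT-29 OD library stayed above each Caco-2 control library. The fall in HT-29 was -3.98 ± 0.10 (FDR 1.89e-22) and -3.25 ± 0.09 (FDR 3.83e-21) on the log2 scale, and that of Caco-2 -1.55 ± 0.37 and -0.84 ± 0.33 (not called). The line difference was -2.54 ± 0.37 for CoCl2 and -2.43 ± 0.30 for OD. FOXA2, 2356 bases away, was not called in any comparison, with log2 fold changes of -0.63 and -0.62 under CoCl2 and of 0.01 and 0.06 under OD, Caco-2 before HT-29.

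Other members fell further in HT-29 than in Caco-2 with CoCl2, among them LINC01836 and LINC01843, both with few counts in HT-29 with CoCl2, and LINC02562 with a line difference of -3.09 ± 0.41. LINC01836 held 1.67, 1.65 and 0.990 CPM in HT-29 control, 0.0724, 0 and 0 CPM with CoCl2 (1 count against 79 over the groups) and 0.215, 0.180 and 0.0550 CPM with OD. In Caco-2 its means were 17.4 CPM in control, 11.3 CPM with CoCl2 and 15.2 CPM with OD, and neither agent was called. LINC01843 fell in both lines with CoCl2, on the log2 scale by 2.21 ± 0.23 in Caco-2 and, on 7 counts against 266, 27.1-fold in HT-29 (interval 12.99 to 68.2). LINC02562 fell on the log2 scale by 1.40 ± 0.23 in Caco-2 and by 4.39 ± 0.26 in HT-29 with CoCl2, and OD lowered it in HT-29 by 1.86 ± 0.16. LINC00511 also had a lower response in HT-29, rising in Caco-2 by 1.35 ± 0.14 with CoCl2 and 1.31 ± 0.14 with OD, with 0.36 and -0.12 in HT-29, neither called, and line differences of -1.10 ± 0.15 (-0.99 with DESeq2 size factors) and -1.44 ± 0.15. With limma-trend on log2 RPKM these LINC00511 line differences were -0.27 and -0.46, not called. LINC00668 rose with OD in Caco-2 (log2) by 1.32 ± 0.10 and fell with CoCl2 in HT-29 by 1.88 ± 0.37. LINC01002 fell with OD in Caco-2 by 1.16 ± 0.45 and rose with CoCl2 in HT-29 by 1.44 ± 0.14 (log2). The first LINC01002 call was lost with DESeq2, without the filter on low counts and without replicate 1 or 2, and the other with library totals alone (0.81) and with limma-trend on log2 RPKM (0.51).

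**Figure D4:**
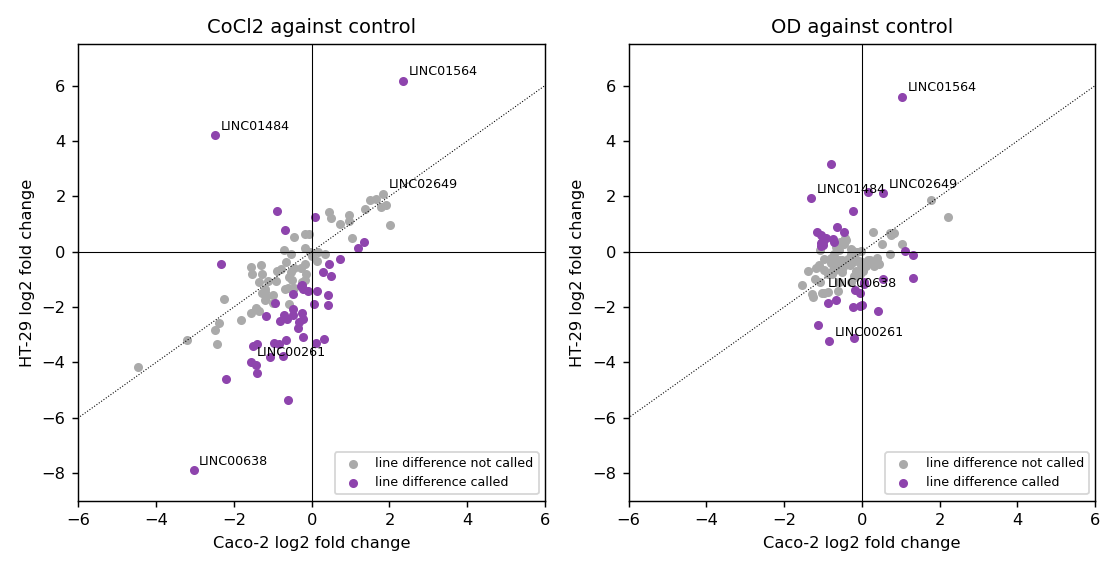
Log2 fold change against control in HT-29 (y axis) against that in Caco-2 (x axis) for the 112 LINC genes tested in both lines, with CoCl2 on the left and OD on the right; purple points had a called difference between lines and the dotted line marks equal change. More points lie under the dotted line with CoCl2, where 42 members had a lower and 6 a higher response in HT-29.

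Levels without treatment differed between the lines for most members. Of 165, 61 were higher in Caco-2 control and 55 higher in HT-29 control, against 24.2% and 21.6% of all genes. Members were chosen by their mean over both lines, so a gene counted in Caco-2 or HT-29 alone could enter. All genes were not chosen in this way, so these shares are a description only. A mean of at least 20 counts was reached in both lines by 78 members, in Caco-2 alone by 52 and in HT-29 alone by 35. 14 members had 3 counts or fewer in every HT-29 library and 9 in every Caco-2 library. LINC01291 had 1235 counts in the Caco-2 controls and none in the HT-29 controls, and LINC00858 had 620 and none. With 3 counts as the floor they were at least 501-fold and 252-fold higher. In the other direction LINC02432 had 1 count in the Caco-2 controls and 2542 in those of HT-29, and LINC00346 had 4 and 1504, a ratio of 309-fold (interval 120 to 1134). The mean level over the 6 groups was highest in Caco-2 control for 56 members and in HT-29 control for 55. The same count was not made over all genes. The rule for members favours high groups, as 16 and 15 members would have missed the limit without these control libraries.

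Per length, the members were sparse next to other genes. In Caco-2 control, the 118 members listed in the authors' log2 table had RPKM (reads scaled by library size and gene length) from 0.190 to 24.8 with a median of 1.49, beside 5.27 for all genes listed. The highest were LINC02747 with 24.5, 27.0 and 23.0 RPKM in the 3 libraries, LINC02038 with a mean of 18.5, LINC02421 with 13.8, LINC02637 with 11.4 and LINC01395 with 11.3. LINC02747 led without overlap. In HT-29 control, 83 members were listed, from 0.126 to 11.1 RPKM with a median of 1.79, beside 5.70 for all. LINC00992 held 9.65, 11.0 and 12.6 RPKM, followed by means of 9.10 for LINC00659, 8.24 for LINC00261, 7.27 for LINC01578 and 6.39 for LINC01833. LINC00992 overlapped LINC00659 in its library values, and LINC00659 overlapped LINC00261.

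Of these leading members, LINC02747 was not called in Caco-2 with either agent and fell in HT-29, where it was low, on the log2 scale with CoCl2 by 1.23 ± 0.32 (-0.99 without replicate 2) and with OD by 2.01 ± 0.33. LINC02637, listed at no count in HT-29, fell in Caco-2, with log2 changes of -2.17 ± 0.25 (CoCl2) and -1.998 ± 0.24 (OD). LINC00992 fell in HT-29 by 2.75 ± 0.16 with CoCl2 and by 1.94 ± 0.13 with OD and had -0.36 and -0.01 in Caco-2, neither called. LINC01578 (CHASERR, a lncRNA known to restrain its neighbour CHD2) held 42.4, 42.6 and 44.3 CPM in HT-29 control and 80.0, 84.8 and 76.0 CPM with CoCl2, a log2 fold change of 1.00 ± 0.05 that lies at the limit of a call and fell under it with DESeq2, library totals alone (0.37) and 5 other alternatives. CHD2, a chromatin remodeller gene that overlaps it on the same strand, had 1.53 there.

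Members and their nearest protein-coding genes were set side by side over 106 (Caco-2) and 99 (HT-29) pairs. Pearson's r of their log2 fold changes was 0.28 (Caco-2) and 0.35 (HT-29) with CoCl2, and 0.29 and 0.19 with OD. For pairs whose genes overlap it was 0.55 over 22 pairs and 0.75 over 19 pairs with CoCl2, and 0.28 and 0.72 with OD. Overlapping pairs may share reads, and the pairs are genes of the same libraries, so these values carry no test. With CoCl2 in HT-29 the neighbour fell for 13 of 55 falling members and rose for 5 of 11 rising members. Of all genes, 23.9% fell and 17.4% rose there. The genes overlap in 3 of the pairs that fell and in 3 of those that rose.

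**Figure D5:**
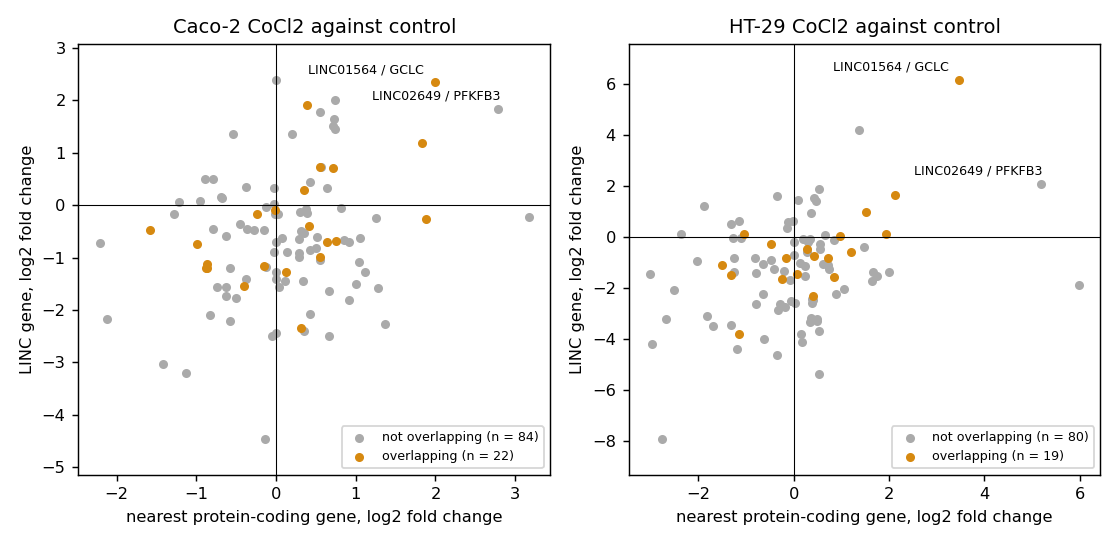
Log2 fold change with CoCl2 of each LINC gene (y axis) against that of its nearest protein-coding gene (x axis), in Caco-2 (left) and HT-29 (right); orange points are pairs that overlap, grey points pairs that do not. The points are widely scattered, and LINC01564 with GCLC and LINC02649 with PFKFB3 lie in the upper right corner in both lines.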

How the data were processed

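The mRNA libraries were analysed, 3 per group with groups from the sample labels. The study's methods call the replicates biological. Per the labels and methods, the authors trimmed single-end reads with cutadapt (2.10), aligned them with STAR (2.7.5b) to GRCh38.p13 and deposited raw counts per GENCODE gene. The counting tool and its use of strand are not given in the sources used here. The submitters' notes also name FastQC 0.11.9, Bowtie 1.1.1 and edgeR 3.30.3. The authors also deposited log2 values, which recomputation showed to be log2(RPKM + 1), normalised within each line, with genes failing their filter at 0. The miRNA tables were not used.

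Genes were tested with edgeR 4.0.16 (R 4.3.3; quasi-likelihood F test, two-sided, TMM scaling, filterByExpr) on the whole count table, per line over 9 libraries, and over all 18 for differences between lines. SE is the log2 fold change over the square root of F, and can be too small for large changes with few counts in a group. CPM levels use TMM over 18 libraries. DESeq2 1.42.0 and limma 3.58.1 were alternatives, and SciPy 1.17.1 gave exact intervals. A planned exact test of the summed shares is not given, since the rule for members used the same counts. Counting intervals cover counting error only. A fold given as at least sets the group without counts to 3 counts and takes the other group's count as exact. It is therefore no 95% bound. Between replicates, chi-square per degree of freedom over genes ran from 1.86 to 11.4, above Poisson error in each group. The HT-29 CoCl2 fit was tested on simulated data.

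Members and lists were chosen with earlier results of these data known. Any member could be named. Values per library were given for the 5 highest and 5 lowest called changes per comparison, members called alike in all 4 or in opposite directions, the 5 highest RPKM per line and extreme line differences, of which the text shows a part. Nearest protein-coding genes of these could be named.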

Additional observations from a re-analysis of the deposited data

Results flagged for a closer look

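Each value here is the fitted difference between the lines in log2 fold change against control (HT-29 minus Caco-2) and was singled out because the interaction test called it. They are the 5 highest and 5 lowest fitted sizes among the called members for each agent. For CoCl2 the highest were 6.58 for LINC01484, -6.44 for LINC02672, -4.84 for LINC00638, -4.82 for LINC01836 and 4.07 for LINC01291. Each of these 5 has an HT-29 group of 4 counts or fewer, so that the values give a direction and neither a measured size nor an order. The calls of LINC00638 and LINC01291 were also lost without replicate 2 (FDR 0.0773 and 0.0921), and that of LINC01291 without replicate 3. The lowest, at the limit of a call, were -1.07 for LINC01409, -1.07 for LINC02747, 1.06 for LINC01697, -1.03 for LINC01569 and -1.01 for LINC02693. All 5 calls were lost under alternatives. LINC01697 was lost without any 1 replicate number, LINC01569 with the replicate block (FDR 0.0527) and without replicate 1 or 2, LINC01409 without replicate 1 (FDR 0.216), LINC02747 without replicate 2 and LINC02693 without replicate 1 or 2, and all of them but LINC01697 with DESeq2. For OD the highest were 5.29 for LINC01291, 4.54 for LINC01564, 4.12 for LINC01293, 3.91 for LINC02701 and 3.2 for LINC01484. The lowest were 1.16 for LINC00963, -1.12 for LINC01559, -1.12 for LINC01091, 1.06 for LINC02245 and -1.02 for LINC02562. Of these, LINC01559 was lost without replicate 2 or 3, LINC01091 without replicate 1 or 2, LINC02245 with DESeq2 and without replicate 2 or 3, LINC02562 with library totals alone and without replicate 2, and LINC00963 with limma-trend on log2 RPKM (0.81).

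In HT-29, LINC01484 had 54 counts under CoCl2 and 15 under OD, against 4 in control. LINC00638 and LINC01836 had 104 and 79 over the HT-29 controls and 0 and 1 with CoCl2. LINC02672 had 27 counts over the HT-29 controls and none with CoCl2, at least 6.43-fold lower with 3 counts as the floor. Its mean in Caco-2 was 10.9 CPM in control and 15.3 CPM with CoCl2. LINC01291 and LINC01293 had no count in the HT-29 controls and 13 and 22 with OD. With 3 counts as the floor these were at least 4.68-fold and 7.92-fold higher, the counting error of 13 and 22 aside. LINC01291 had 3 counts with CoCl2, so its CoCl2 difference has no interpretable fold. LINC02701 held 0.0668, 0.171 and 0.356 CPM in HT-29 control and 2.15, 2.04 and 1.87 CPM with OD, and in Caco-2 fell short of a call, with -0.78 ± 0.15. LINC00963 held 50.8, 58.6 and 59.3 CPM in HT-29 control and 91.7, 91.1 and 92.1 CPM with OD, and its changes of 0.71 in HT-29 and -0.46 in Caco-2 were each below the limit of a call.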

How the results depend on the processing

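The counts of called members stayed within 1.5 times the reported value under all alternatives but 1. With limma-trend on the deposited log2(RPKM + 1) values, 19, 3, 19 and 7 members were called for CoCl2 and OD in Caco-2 and then HT-29, 7 and 11 for CoCl2 against OD, and 2 and 3 for the line differences with CoCl2 and OD. Adding 1 to RPKM shrinks the differences of genes with low RPKM by construction. Leaving out 1 replicate number gave 57 to 62, 28 to 35, 84 to 89 and 36 to 38 called members in the 4 comparisons with control, where the full data gave 59, 34, 90 and 38. It gave 31 to 33 and 68 to 73 for CoCl2 against OD, 47 to 50 and 37 to 40 for the line differences, below the 57 and 42 of the full data, and 114 to 120 for the control lines. Library totals alone, without TMM, moved the median of all genes by -0.32, -0.15, -0.63 and -0.14 in the 4 comparisons, and the member medians to -0.85, -0.65, -1.72 and -0.48. DESeq2 size factors moved the median of all genes by 0.10 for the CoCl2 line difference, with 8 members then called higher and 42 lower. Same-numbered libraries did not deviate together (correlations from -0.055 to 0.068, limit 0.1), so the replicate number shows no pairing in the data; with it as a replicate block, 60, 34, 90 and 38 members were called. Of 536 calls of members in 9 comparisons, 330 held under every alternative run. The direction reversed for LINC02487 in the CoCl2 line difference without replicate 2 (range without 1 replicate -3.46 to 0.12) and for LINC00623 without replicate 3 (-5.61 to 1.82). The cause was not tested. The limma alternative was not run for the control lines, whose columns were normalised separately. At a few counts per library, member folds are known only within their counting intervals.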

Other observations

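LncRNA genes with names of their own, outside the LINC symbols, were described as a list of their own. Of 47 listed, 44 were in the table. CoCl2 raised 13 and lowered 2 of 35 tested in Caco-2 (all genes 9.13% and 14.2%), and raised 10 and lowered 12 of 37 in HT-29 (17.4% and 23.9%). OD raised 2 and lowered 3 of 35 in Caco-2 (4.43% and 7.27%), and raised 6 and lowered 6 of 37 in HT-29 (9.5% and 7.57%). The difference between this list and the LINC members was not tested. The median log2 fold change with CoCl2 was 0.62 in Caco-2 and -0.26 in HT-29. MIR210HG, the host transcript of the hypoxia-induced miR-210, rose by 1.90 (Caco-2) and 2.80 (HT-29) with CoCl2 and by 1.46 (Caco-2) with OD on the log2 scale, and had 0.60 with OD in HT-29 (not called). HOTAIR fell with CoCl2 (-1.91 and -3.30) and with OD (-1.64 and -1.26), Caco-2 before HT-29. NEAT1 rose with CoCl2 in Caco-2 (1.20) and fell with CoCl2 in HT-29 (-1.54).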
